A study of Homo sapiens with 8 samples.

Results

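Small nucleolar RNAs (snoRNAs) and small Cajal body RNAs (scaRNAs) were described on 8 expression arrays of transfected cancer cell lines. Every array sequence whose gene name begins with SCARNA, SNORA or SNORD was taken, provided that the scanner flagged it as well above background in either channel of at least 1 array. Of 337 such sequences for 306 genes, 263 for 244 genes were measured, among 41810 named genes on the arrays. They comprised 21 SCARNA, 96 SNORA and 127 SNORD genes, and 1 SNORA and 61 SNORD genes never rose above background. The genes were selected on these data, because SCARNA genes were among the highest with miR-490-5p. The values on that array are therefore a description, and no test of them is given.

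Both RNA families act as guides. C/D box RNAs, named SNORD, pair with a target RNA and direct ribose methylation by fibrillarin, and H/ACA box RNAs, named SNORA, direct pseudouridylation by dyskerin. Most targets are in ribosomal RNA. The scaRNAs carry either or both box types, collect in Cajal bodies and modify the small nuclear RNAs of the spliceosome. In human cells most of these RNAs are cut from introns of host genes and bear no poly(A) tail, and the abundant C/D RNA U3 takes part in cleavage of the ribosomal RNA precursor.

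On each array the Cy5 channel held total RNA of cells transfected with a mature miRNA or an siRNA using Lipofectamine RNAiMAX, and the Cy3 channel held RNA of the same line labelled as mock, without transfection. The miRNA miR-139-5p was put into the renal cancer lines A498 and 786-O (1 array each), and so was miR-139-3p. The siRNAs si-GINS1_1 and si-GINS1_2 went into the breast cancer line MDA-MB-231 (1 array each), and miR-490-5p and miR-490-3p into the colorectal cancer line HCT116 (1 array each). The replicates of a miR-139 strand were thus 2 cell lines and those of si-GINS1 were 2 siRNAs, and both miR-490 arrays stood alone. Since the mock cells received neither lipid nor RNA, an effect of transfection itself cannot be told apart from that of the RNA sequence. Dyes were never swapped. The labels do not say whether both arrays of a line carried 1 mock extract, so arrays of a line may share it.

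Array sequences are shown first, because their place in the RNA decides what was measured. Of the 263, 245 matched a RefSeq record of the RNA itself, and 213 of these ended no more than 15 bases before its 3′ end. The other 18 (1 SCARNA, 16 SNORA and 1 SNORD) carry the name of the RNA but another record. Below are the 5 SCARNA sequences that lay at or above 1 with miR-490-5p, the lowest SCARNA there, both SNORA sequences at or above 1 with both miR-490 strands, and both SNORD genes whose difference between the strands reached 1. Each is 60 bases long, sense to the RNA, and capitals mark the ACA of the H/ACA tail, placed 3 bases before the RNA's 3′ end, or the CTGA of box D.
SCARNA20 (chr17:58308877-58308936, hg19, minus strand): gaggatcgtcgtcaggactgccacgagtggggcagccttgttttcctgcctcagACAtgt
SCARNA11 (chr12:6690639-6690698, hg19, minus strand): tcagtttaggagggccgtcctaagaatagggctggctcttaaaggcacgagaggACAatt
SCARNA8 (chr9:19063664-19063723, hg19, minus strand): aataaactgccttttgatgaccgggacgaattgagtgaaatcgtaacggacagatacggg
SCARNA16 (chr17:75085516-75085575, hg19, plus strand): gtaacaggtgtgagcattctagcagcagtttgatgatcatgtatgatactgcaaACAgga
SCARNA18 (chr5:82360023-82360082, hg19, minus strand): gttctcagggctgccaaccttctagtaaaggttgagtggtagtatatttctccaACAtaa
SCARNA5 (chr2:234184514-234184573, hg19, plus strand): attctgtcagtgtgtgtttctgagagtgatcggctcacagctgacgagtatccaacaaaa
SNORA67 (chr17:7481350-7481409, hg19, plus strand): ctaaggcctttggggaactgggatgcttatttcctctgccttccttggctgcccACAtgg
SNORA2B (chr12:49061252-49061311, hg19, minus strand): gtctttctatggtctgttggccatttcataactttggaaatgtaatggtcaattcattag
SNORD43 (chr22:39715057-39715116, hg19, minus strand): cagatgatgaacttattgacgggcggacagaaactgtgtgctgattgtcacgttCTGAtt
SNORD52 (chr6:31804857-31804916, hg19, plus strand): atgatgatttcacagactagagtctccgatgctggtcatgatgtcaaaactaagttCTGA

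The box letters set SNORD apart from SCARNA and SNORA on the array, and did not part SCARNA from SNORA. Among sequences that ended within 1 base of the RNA's end, ACANNN stood at the end in 9 of 11 SCARNA, 40 of 55 SNORA and 2 of 108 SNORD sequences, against 2.14% of all 58201 array sequences. The letters CTGA lay in the last 12 bases of 92 of 108 SNORD, 3 of 11 SCARNA and 1 of 55 SNORA sequences, against 5.73% of all. Only the sense strand was searched for either. The sequences of SCARNA8 and SCARNA5 end 10 and 76 bases short of the RNA's end, so their tails could not be shown. By their positions in RefSeq (GRCh38), 199 of the 263 sequences lay inside a longer gene on the same strand, among them 20 of 23 SCARNA sequences.

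Matches to the seeds of the transfected miR-490 strands were counted in the member sequences. RefSeq (GRCh38) gives these mature miRNAs on chromosome 7, with the seed, bases 2 to 8, in capitals.
hsa-miR-490-5p (chr7:136903205-136903224, GRCh38, plus strand): cCAUGGAUcuccaggugggu
hsa-miR-490-3p (chr7:136903242-136903263, GRCh38, plus strand): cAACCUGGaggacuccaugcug
The 7-base match to the miR-490-5p seed, ATCCATG, occurred in 2 of 263 member sequences (SNORD36A and SNORD99) and in 0.448% of all array sequences. That of miR-490-3p, CCAGGTT, occurred in 1 (SNORA45A) and in 0.39% of all. No SCARNA sequence held either, and matches to the seeds of miR-139-5p and miR-139-3p occurred in 0 of 263. The window is 60 bases, so the rest of a longer RNA was not searched.

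Measured signals of these RNAs were mostly dim. In the mock channels, A498 had 165 member genes well above background on both its arrays, 786-O had 176, MDA-MB-231 had 208 and HCT116 had 220. Their median level on the log2 intensity scale was between 6.36 and 6.76, against 6.91 to 7.17 for all named genes detected there, and the brightest, SNORD3B-1 (U3), lay between 14.93 and 15.34. The 2 mock channels of a line differed by no more than 0.48 log2 units in any of these member genes. The labelling kit (Low RNA Input Linear Amplification) is primed on poly(A), which mature snoRNAs lack, and whether the signal came from mature RNAs, precursors or longer transcripts was not tested. The labelled cell types were checked in the mock channels. PAX8, a renal factor, was at 8.23 and 8.16 in A498 and 786-O against 6.76 and 6.36 in the other lines. The mesenchymal gene VIM was at 6.81 in HCT116 against 14.85 in MDA-MB-231, and the epithelial gene EPCAM was higher in HCT116 than in the other 3 lines. CA9, a renal cancer marker, was not well above background in A498 and was so on 1 of 2 arrays in 786-O. The intestinal markers VIL1 and CDH17 were not above background in HCT116, and CDX2 was (7.70). Counting either channel, all 4 genes of the breast list (VIM, ZEB1, ESR1 and CDH1) were detected on every MDA-MB-231 and HCT116 array. Detection of ESR1 and CDH1 thus did not part these lines. Of the renal list (PAX8, PAX2, CDH6 and CA9), 1 was detected in MDA-MB-231 and 2 in HCT116. Of PTPRC and PECAM1, markers of leukocytes and endothelium, at least 1 was detected on every array.

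The levels of several SCARNA genes differed widely between lines. SCARNA22, which lies in an intron of the histone methyltransferase gene NSD2, had a mock level of 11.51 in MDA-MB-231, 10.05 in HCT116, 8.21 in 786-O and 7.85 in A498. SCARNA13, inside the non-coding host SNHG10, lay at 9.96 in HCT116, 7.65 in MDA-MB-231, 6.42 in 786-O and 6.07 in A498. Gaps between the 2 mock channels of a line were at most 0.23 for SCARNA22 and 0.21 for SCARNA13 log2 units, smaller than every step between neighbours in these orders. Of 13 SCARNA genes well above background in every mock channel, 6 were highest in HCT116 and 6 in MDA-MB-231, and the median range over the 4 lines was 1.72 log2 units. It was 0.75 for 72 SNORA genes, of which 49 were highest in HCT116, and 0.68 for 68 SNORD genes, of which 56 were. The mock channels of a line may be 1 extract, so these orders carry no test.

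**Figure D1:**
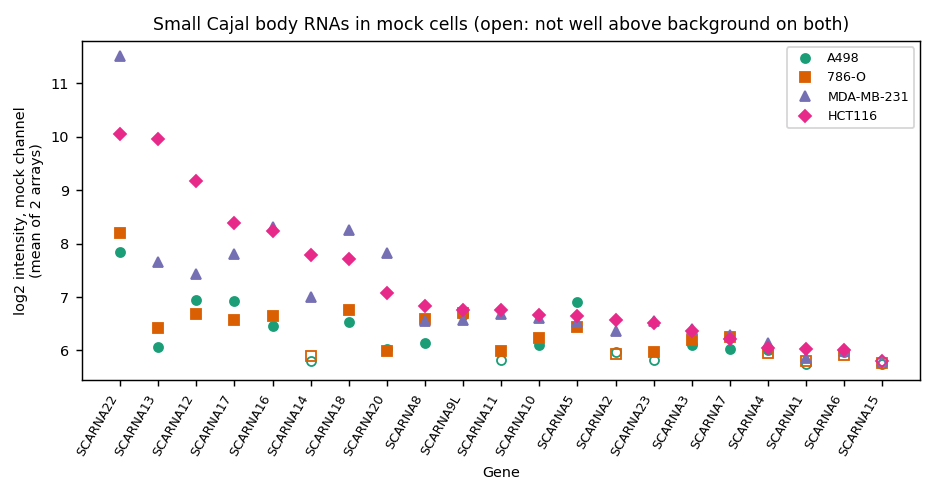
Mock-channel log2 intensity (y axis, mean of the 2 arrays of a line) of the 21 SCARNA genes (x axis, ordered by HCT116), with a symbol for each cell line and open symbols where the gene was not well above background on both arrays. SCARNA22 and SCARNA13 span the widest ranges, and SCARNA15 was above background in no mock channel.

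With miR-490-5p in HCT116 the SCARNA genes lay high as a class, and these are the values the genes were selected on. All ratios are log2 of transfected over mock. SCARNA20, in an intron of the deubiquitinase gene USP32, had a ratio of 1.86, from a net brightness of 105 in the mock channel to 551 in the transfected one. SCARNA11, in the chromatin remodeller gene CHD4, had 1.83 (76.3 to 428), SCARNA8, in HAUS6, 1.79 (89.4 to 462) and SCARNA16, in SEC14L1, 1.73 (320 to 1302). SCARNA18, in TMEM167A, followed at 1.12 (199 to 532). Just inside the limit of 1 was SNORA31 at 1.02 and just outside were SNORA79 and SCARNA14, both at 0.95. SCARNA13 (0.90), SCARNA10 (0.60), SCARNA17 (0.54) and SCARNA1, SCARNA2 and SCARNA7 (0.49, 0.49 and 0.47) came next. SCARNA12, SCARNA23 and SCARNA4 lay between 0.40 and 0.42, SCARNA9L, SCARNA22 and SCARNA3 between 0.13 and 0.28, and SCARNA6 and SCARNA5 at 0.01 and -0.00. SCARNA15 was not well above background in the mock channel, so that its ratio is only a bound, at least 1.04-fold higher. Of the 20 other SCARNA genes 19 were above 0, with a median of 0.49 against 0.01 for 20960 named genes (0.49 with SCARNA15 as well), and 5 lay at or above 1, against a background of 0.305% of named genes.

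The SNORA and SNORD genes were centred near 0 on the same array. The 92 SNORA genes had a median of -0.02, with 44 above 0 and 3 at or above 1. These were SNORA2B at 1.53, in the gene KANSL2, SNORA67 at 1.35, in the translation helicase gene EIF4A1, and SNORA31 at 1.02, in TPT1. SNORA79 (0.95), SNORA48 (0.90), SNORA12 (0.71), SNORA80E (0.46) and SNORA6 (0.32) followed, and the lowest were SNORA84 (-0.69), SNORA65 (-0.51), SNORA18 (-0.50) and SNORA21 (-0.47). The 114 SNORD genes had a median of -0.05, with 43 above 0 and none past 1 in either direction. SNORD76 was highest at 0.50, followed by SNORD56 (0.37), U3 (SNORD3B-1, 0.34) and SNORD55 (0.19), and SNORD43 (-0.71), SNORD86 (-0.64), SNORD52 (-0.63) and SNORD47 (-0.55) were lowest. SNORD76 and SNORD47 both lie in introns of GAS5 and so stood at the opposite ends of their class.

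On the miR-490-3p array fewer members passed 1. Here 14 of 20 SCARNA genes were above 0, with a median of 0.26, and 1 lay at or above 1, against 0.409% of 21271 named genes. That gene was SCARNA16 at 1.03. SCARNA20 (0.88), SCARNA14 (0.80), SCARNA8 (0.79), SCARNA17 (0.77), SCARNA11 (0.68), SCARNA18 (0.57) and SCARNA1 (0.56) followed, SCARNA13 was at -0.00, and SCARNA22 was lowest at -0.23. The 95 SNORA genes had a median of 0.07 and 2 at or above 1, SNORA67 at 1.60 and SNORA2B at 1.09, followed by SNORA63 (0.92), SNORA80E (0.86) and SNORA78 (0.77, from a sequence designed on another record). SNORA16B (-0.42) and SNORA16A (-0.39) were lowest. The median of 115 SNORD genes was 0.03, from SNORD52 at 0.75, SNORD69 at 0.65 and SNORD88C at 0.55 down to SNORD26 at -0.44.

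**Figure D2:**
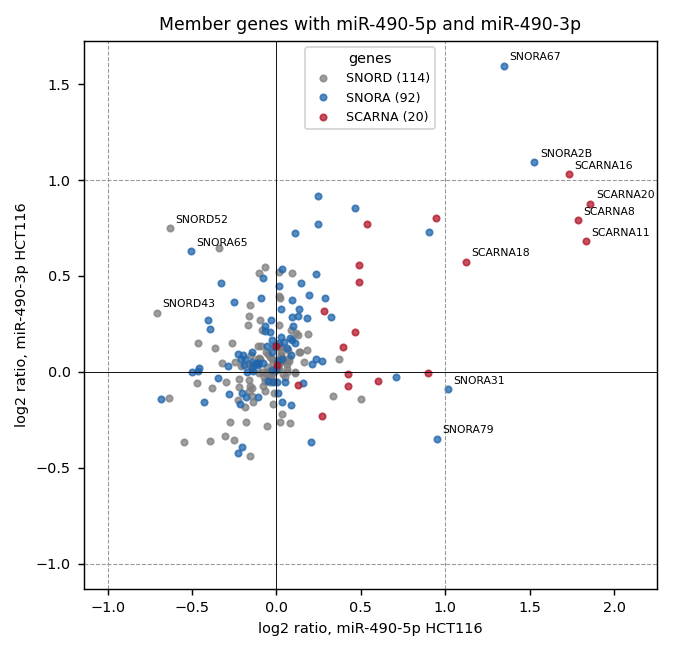
Each point is a member gene with its log2 ratio for miR-490-5p (x axis) and miR-490-3p (y axis) in HCT116, coloured by class with the number of genes in brackets. Dashed lines mark -1 and 1. SCARNA genes spread along the right side, whereas SNORD genes stay within 1 of zero on both axes.

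The difference of the 2 strands, where any dye bias that both arrays share drops out, had 3 members at or above 1 and 3 at or below -1 of 226, against 0.855% and 0.445% of 20245 named genes. Higher with miR-490-3p were SNORD52 by 1.38 (0.75 against -0.63), SNORA65 by 1.13 (0.63 against -0.51) and SNORD43 by 1.02 (0.31 against -0.71). Lower with miR-490-3p were SNORA79, which fell by 1.30 (-0.35 against 0.95), SCARNA11, which fell by 1.15 (0.68 against 1.83), and SNORA31, which fell by 1.11 (-0.09 against 1.02). SCARNA genes lay lower with miR-490-3p in 15 of 20 cases, with a median difference of -0.35. They were selected for high values on the array that is subtracted, which makes a lower difference more likely. SNORA genes lay higher in 72 of 92 and SNORD genes in 83 of 114, with median differences of 0.16 and 0.06, while all named genes had -0.00. Each strand had 1 array, so no spread of its own is known, and no test of the difference is given.

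On the si-GINS1 arrays the target itself, a subunit of the replicative helicase, had ratios of -1.31 with si-GINS1_1 and -1.92 with si-GINS1_2. Most SCARNA and SNORA genes went opposite ways on the 2 arrays, and most SNORD genes did not. Lower with si-GINS1_1 and higher with si-GINS1_2 were 18 of 20 SCARNA, 64 of 93 SNORA and 42 of 112 SNORD genes. The share of all named genes was 20.2%. Higher with both were 62 of 112 SNORD genes, beside 6384 of 20800 named genes. With si-GINS1_1, 18 of 20 SCARNA genes lay below 0, with a median of -0.39 against 0.02 for all named genes, and 8 were at or below -1, against 2.11% of 22124. Under median centring 14 of 20 lay below 0, with a median of -0.19 against 0.18 for all named genes, and 4 were at or below -1. With si-GINS1_2, 19 of the 20 with a mock channel above background lay above 0, with a median of 0.63 (0.61 with SCARNA15, again only a bound) against 0.00, and 6 were at or above 1, against 0.608% of 21375. SNORA genes followed the same order, with medians of -0.12 and 0.32, 5 of 94 at or below -1 with si-GINS1_1 and 12 of 94 at or above 1 with si-GINS1_2. The SNORD medians were 0.03 and 0.13, and of these genes only SNORD46 passed 1, at 1.07 with si-GINS1_2.

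Single genes showed the gap in full. The genes in this paragraph were named after their values were seen, except the SCARNA genes. SCARNA13 lay at -1.64 with si-GINS1_1 and 2.71 with si-GINS1_2, or a net brightness of 198 in mock and 48.1 in transfected cells on the first array against 207 and 2003 on the second. SCARNA20 lay at -1.58 and 1.18, SCARNA14 at -1.50 and 1.17, SCARNA16 at -1.18 and 1.42, and SCARNA11 at -1.09 and 1.27. SCARNA8 lay at -0.65 and 1.52, SCARNA18 at -1.15 and 0.66, and SCARNA12 at -1.05 and 0.75. In SCARNA22 only 1 side was far from 0, with -1.89 and 0.13. The mock brightness of these genes was alike on both arrays, so the gap lay in the transfected channel. Among SNORA genes, SNORA67 lay at -2.05 and 1.62, SNORA48 at -0.73 and 2.18, SNORA6 at -0.70 and 1.93, SNORA2B at -0.72 and 1.59 and SNORA79 at -1.80 and 0.52.

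The difference si-GINS1_2 minus si-GINS1_1 was at or above 1 in 10 of 20 SCARNA, 23 of 93 SNORA and 0 of 112 SNORD genes, against 2.59% of named genes. Both ratios may rest on 1 mock extract, which then cancels in their difference, each siRNA had 1 array, and the difference of the siRNAs was not tested.

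**Figure D3:**
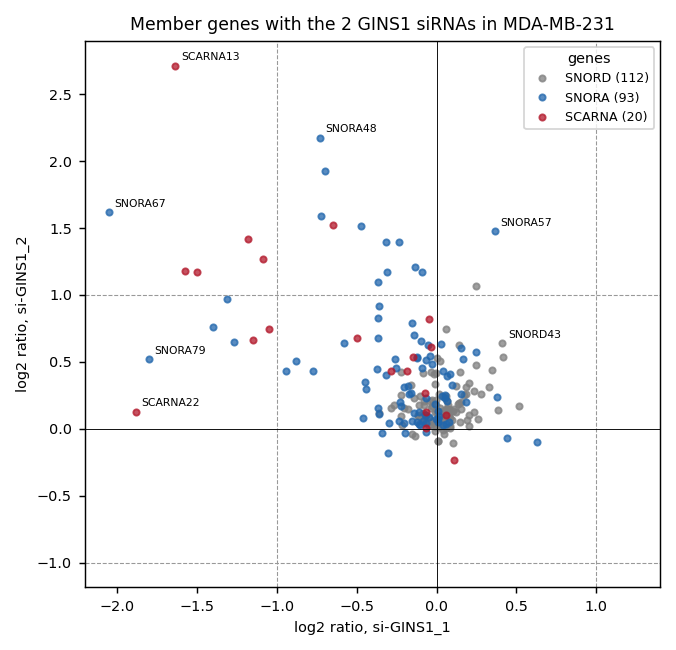
Log2 ratios of the member genes with si-GINS1_1 (x axis) and si-GINS1_2 (y axis) in MDA-MB-231, coloured by class with the number of genes in brackets, and dashed lines at -1 and 1. SCARNA and SNORA genes extend into the upper left, as far as -1.64 and 2.71 for SCARNA13, and SNORD genes gather near the centre.

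Averaged over both siRNAs, few members passed the test. limma called 6 of 240 member sequences at an adjusted p under 0.05 by Benjamini-Hochberg, all higher, or 2.5% beside a background of 3.32% of 27806 array sequences called higher and 6.95% called either way. Of 22 SCARNA sequences, 0 were called in limma and 0 had an unadjusted p under 0.05, the lowest adjusted p being 0.307. An unadjusted p under 0.05 in limma was found for 36 of 240 member sequences, beside 7214 of all 27806. The called members were small and even changes. SNORD43, in an intron of the ribosomal protein gene RPL3, lay at 0.41 and 0.64, a mean of 0.53 ± 0.16 (SD, n = 2; limma adjusted p 0.0285). SNORD21 lay at 0.41 and 0.53, with a mean of 0.47 ± 0.085 (SD, n = 2; limma adjusted p 0.0200). SNORD16 (mean 0.39, limma adjusted p 0.0356), SNORD36A (0.36, 0.0473), SNORD110 (0.32, 0.0285) and SNORA41 (0.31, 0.0435) were the others. Larger means had a wider spread and were not called, among them SNORA57 at 0.92 (0.37 and 1.48) and SNORD46 at 0.66 (0.25 and 1.07). The highest and the lowest members on 1 side with both siRNAs otherwise were SNORA10 at 0.41 and SNORA31 at -0.24, SNORA59B at -0.19, SNORA70B at -0.11, SNORD37 at -0.10 and SNORD9 at -0.09. The count of 6 rested on the spread shared with other groups. In limma it was 0 in a fit of the 2 si-GINS1 arrays alone, with 7 at an unadjusted p under 0.05, and 0 by the scanner log ratio, with 30. Over all 27806 sequences the same fits called 0 and 75, so the loss was not particular to the members. In these limma fits 2541 and 5282 of all sequences had an unadjusted p under 0.05.

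The miR-139 arrays showed little. On both miR-139-5p arrays, and for miR-139-3p on that of 786-O, no member passed 1 in either direction, and the medians of the 3 classes lay between -0.01 and 0.03. By the scanner log ratio 5, 4 and 6 members passed 1 on these arrays (miR-139-5p in A498 and in 786-O, then miR-139-3p in 786-O), beside 717, 461 and 553 named genes. Their shares were 2.58%, 1.97% and 2.93% of members, near the 3.51%, 2.43% and 2.9% of named genes. The array of miR-139-3p in A498 stood apart from these arrays. There 17 of 18 SCARNA genes lay above 0, with a median of 0.20 against 0.00 for all named genes, and 4 members were at or above 1, against 0.0307% of 19531 named genes, or 6. By the scanner log ratio the SCARNA median there was 0.99, and 36 of 197 members passed 1 (18.3%), beside 4.64% of named genes. The 4 members were SCARNA22 at 1.33, SNORA48 at 1.29, SNORA67 at 1.24 and SNORA2B at 1.23. SCARNA16 (0.92), SCARNA13 (0.84), SCARNA20 (0.72) and SCARNA12 (0.67) came next among the SCARNA genes. In 786-O the same strand gave -0.11 to 0.17 for the 4 members past 1, so the cell lines did not share the values. SNORA48 and SNORA67 both lie in EIF4A1.

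Over both lines limma called 0 of 194 member sequences for miR-139-5p, beside a background of 0.0129% called. An unadjusted p under 0.05 in limma was found for 0 of them, beside 591 of 23292 sequences. For miR-139-3p limma called 0 of 192, beside a background of 0% called. Here 2 members (SNORD71 and SNORD21) had an unadjusted p under 0.05 in limma, beside 1014 of 22817 sequences. Among members on 1 side in both lines, the highest means with miR-139-3p were SCARNA22 at 0.75 ± 0.82, SNORA67 at 0.63 ± 0.87, SCARNA13 at 0.49 ± 0.493, SCARNA16 at 0.48 ± 0.62 and SNORA12 at 0.48 ± 0.54 (SD, n = 2 each), and each spread was at least as large as its mean. With miR-139-5p, SCARNA22 was highest at 0.23 ± 0.17 (SD, n = 2) and SCARNA17 lowest at -0.24 ± 0.25 (SD, n = 2). The contrast of the strands in limma called 0 of 185, beside a background of 0% called. In that contrast 1 member (SNORD12B) had an unadjusted p under 0.05 in limma, beside 150 of 22183 sequences. The spread was shared with the si-GINS1 arrays, on which most SCARNA and SNORA genes went opposite ways. The median standard error with miR-139-5p was 0.27 in SCARNA, 0.12 in SNORA and 0.07 in SNORD sequences. When each strand was fitted on its own 2 arrays, limma again called 0 members. At an unadjusted p under 0.05 lay 9 members with the 5p strand, beside 2137 of 23292 sequences. With the 3p strand these were 19, beside 2951 of 22817. With 2 arrays a group, none of these counts shows that the members were level.

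**Figure D4:**
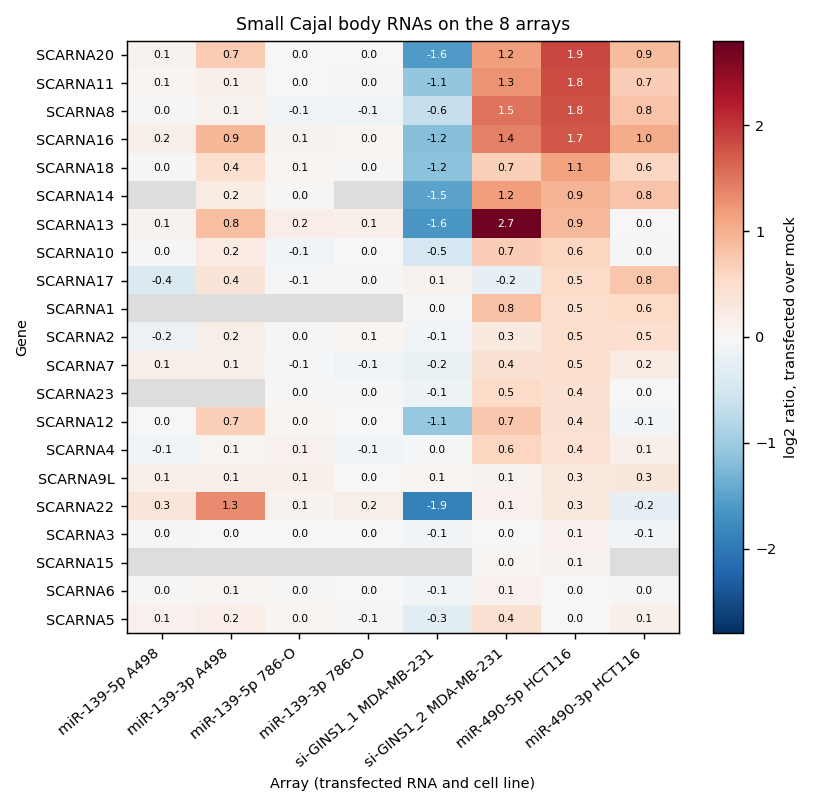
Log2 ratios of the 21 SCARNA genes (rows, ordered by miR-490-5p) on the 8 arrays (columns), red for above and blue for below 0, and grey where the gene was in neither channel well above background. The upper rows are red with miR-490-5p and si-GINS1_2 and blue with si-GINS1_1, and the 3 other miR-139 arrays are pale beside miR-139-3p in A498.

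The 8 genes at or above 1 with miR-490-5p were then read on the other arrays. With miR-490-3p, in the same line, 7 were above 0 (-0.09 to 1.60, median 0.83), beside 11055 of 21271 named genes. There 3 of the 8 lay at or above 1. Their ratios lay below 0 with si-GINS1_1 in every case (-2.05 to -0.31, median -1.12), beside 10272 of 22124 named genes. Above 0 with si-GINS1_2 were 7 (-0.18 to 1.62, median 1.34), beside 10983 of 21375. With miR-139-3p in A498 7 were above 0 (median 0.58), beside 10086 of 19531. On the remaining 3 miR-139 arrays their medians lay between 0.00 and 0.03. The member below 0 with si-GINS1_2 (-0.18) and with miR-139-3p in A498 (-0.15) was SNORA31 both times. Dyes ran the same way on all arrays. Within the SCARNA class, the 10 genes whose array sequence ended in ACANNN had medians of 0.70 with miR-490-5p, -1.15 with si-GINS1_1 (9 measured) and 0.74 with si-GINS1_2, and the 11 others had 0.47, -0.07 and 0.43. The SNORA genes with and without that end did not part in this way, with medians of -0.01 and -0.05 on the miR-490-5p array. These subsets were formed after the values were seen. Of 22 SCARNA sequences matched to RefSeq, 11 ended within 1 base of the RNA's end, and 9 of these held ACANNN. A sequence that ended further from it could miss the tail. The split therefore follows where the array sequence ends, and does not part H/ACA from other scaRNAs.

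**Figure D5:**
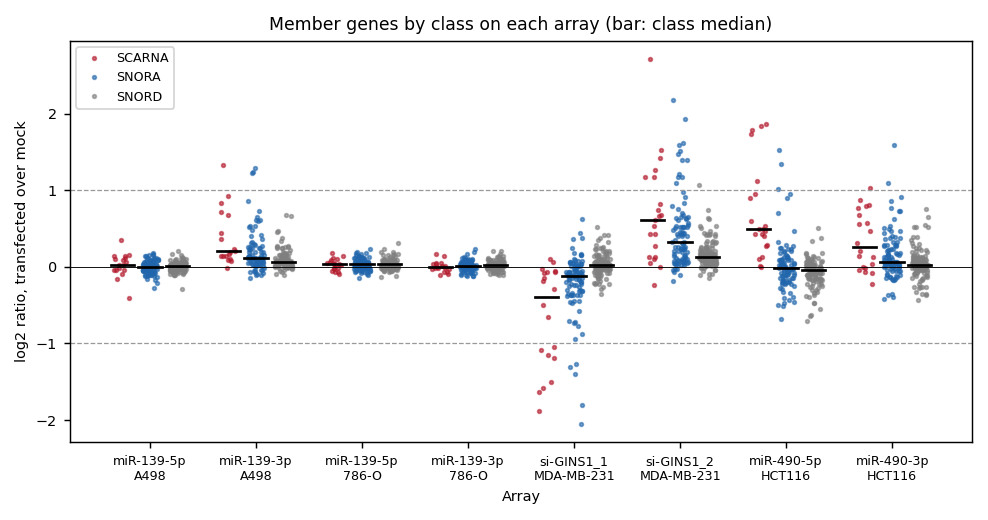
Log2 ratio (y axis) of every measured member gene on each array (x axis), as points by class with a bar at the class median. Dashed lines mark -1 and 1. SCARNA medians reach 0.49 with miR-490-5p, -0.39 with si-GINS1_1 and 0.61 with si-GINS1_2, and on 3 of the 4 miR-139 arrays all classes lie close to 0.

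The host genes of the scaRNAs lay near 0 on the miR-490 arrays. On the miR-490-5p array 18 hosts of SCARNA genes were measured, with a median of -0.01 and a range of -0.72 to 0.17. USP32 lay at 0.13, CHD4 at -0.10, HAUS6 at -0.01, SEC14L1 at -0.03 and TMEM167A at 0.02, beside scaRNA ratios from 1.12 to 1.86. With si-GINS1_1, where 8 SCARNA genes were at or below -1, 0 of their hosts were past 1 in either direction, and SNHG10 lay at -0.04. With si-GINS1_2, where SCARNA13 stood at 2.71, SNHG10 lay at 0.02, and for 6 SCARNA genes past 1 again 0 hosts were. Hosts past 1 belonged to scaRNAs that were not, such as NCAPD2, a condensin subunit gene, at -2.27 with si-GINS1_2 beside SCARNA10 at 0.68. Of 8 SNORA genes past 1 with si-GINS1_2 and with a measured host, 1 had a host past 1, SNORA13 at 1.21 beside EPB41L4A-AS1 at 1.20. EIF4A1, host of SNORA67 and SNORA48, lay at -0.39, -0.11, -0.27 and 0.09 with miR-490-5p, miR-490-3p, si-GINS1_1 and si-GINS1_2. A host's array sequence lies in its spliced RNA, and unspliced host RNA was not measured.

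The proteins that bind the RNAs were followed as fixed lists. Among the C/D core proteins FBL, NOP56, NOP58 and NHP2L1 (now SNU13), limma called 1 of 4 for si-GINS1, NHP2L1 at 0.52 (adjusted p 0.0232), beside the background of 6.95% given above. None of the H/ACA core proteins DKC1, NOP10, NHP2 and GAR1 was called, although GAR1 lay at -0.83 with si-GINS1_1 and 0.66 with si-GINS1_2 and DKC1, the pseudouridine synthase, at -0.33 and 0.64. With miR-490-5p DKC1 lay at -0.89 and NOP10 at 0.52. Of 15 assembly and Cajal body factors 2 were at or below -1 with si-GINS1_1, the assembly factor PIH1D1 at -1.92 and the export adaptor PHAX at -1.05, and 0 were past 1 with miR-490-5p, where NOLC1 lay at -0.78 and COIL, the marker protein of Cajal bodies, at 0.44. Of 12 processing and turnover genes only EXOSC3, an exosome subunit, passed 1, at -1.02 with si-GINS1_1. No gene of these lists was called for either miR-139 strand in limma.

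Other short or nuclear RNAs went in several directions. Among 15 listed host genes of snoRNAs, most of them long non-coding, the median was -0.48 with miR-490-5p, with SNHG7 at -1.55 and SNHG16 at -1.36. For si-GINS1 limma called 2 of these 15 higher, SNHG16 (0.62) and DANCR (0.46), beside the background of 3.32%. These calls and that of NHP2L1 were lost in the fit of the si-GINS1 arrays alone, which called 0 of 27806. In the list of other short non-coding RNAs, 6 of 25 lay at or above 1 with miR-490-5p, beside 0.305% of named genes. All 6 were SNAR genes, near-identical copies that the sequences cannot tell apart. RN7SL1, the RNA of the signal recognition particle, lay at -1.26. TERC, the telomerase RNA and itself an H/ACA RNA, lay at -1.25 with si-GINS1_1 and -0.05 with si-GINS1_2. Of the same list 7 of 24 lay at or above 1 with miR-490-3p, beside 0.409% of named genes, and 1 at or below -1. With si-GINS1_1 9 of 23 lay at or above 1, beside 215 of 22124 named genes, and 1 at or below -1. There 20 were above 0, with a median of 0.34, the other way from the scaRNAs. RNU11 and RPPH1 were among these, at 2.19 and 2.10, and lay at -0.07 and 0.01 with si-GINS1_2, where 0 of 24 passed 1. The nuclear RNA MALAT1 lay at -0.38 and 0.43 on those arrays and at -0.35 with miR-490-5p. Clustered histone genes, which likewise lack a poly(A) tail, had medians of -0.01 with si-GINS1_1, -0.60 with si-GINS1_2 and -0.05 with miR-490-5p.

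The way the ratios were made changed their sizes. The SCARNA median with miR-490-5p was 1.03 by the scanner log ratio and 0.83 with an offset of 10 in place of 50. Under each of the 4 other ways of making ratios the SCARNA median stayed above 0 with miR-490-5p, miR-490-3p and si-GINS1_2 and below 0 with si-GINS1_1. The SNORA median with si-GINS1_1 did not, at 0.07 under median centring. Centring moved all named genes on that array to a median of 0.18, which the SNORA median stayed below. Every member past 1 on an array was well above background in both channels there. Of the genes with several sequences, 17 could be compared on the miR-490-5p array, and these differed by 0.12 in the median and by over 0.5 in SNORA76C alone (-0.69 and 0.19). The median gap was 0.08 with si-GINS1_1 and 0.34 with si-GINS1_2, with 2 genes over 0.5 on each. One of them, SNORA12, lay at -1.31 and -0.60 with si-GINS1_1 and at 0.97 and 1.84 with si-GINS1_2, so that its side of the limit depended on the sequence. The other with si-GINS1_2 was SCARNA23, whose sequences lay on opposite sides of 0. The one used and the other lay at 0.54 and -0.15 there, -0.14 and 0.27 with si-GINS1_1, and 0.42 and -0.04 with miR-490-5p. SCARNA10 kept its side, at -0.50 and -0.03, 0.68 and 0.27, and 0.60 and 0.57 with si-GINS1_1, si-GINS1_2 and miR-490-5p.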

How the data were processed

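The 8 arrays were 2-colour Agilent expression arrays on 1 slide, and per the file headers the authors read them with Feature Extraction 11.5.1.1. The deposited intensity values are mean spot and median background brightness in each channel, not normalized. The scanner's own log10 ratio (Cy5 to Cy3), as deposited, was converted to log2 and served as an alternative, the scanner log ratio. Of 62976 spots per array, 2075 were controls and 169 to 272 carried outlier flags. These were left out, and 0 were saturated. Normexp with an offset of 50 (limma 3.58.1, R 4.3.3) removed the background, log2 ratios were normalized by loess within each array, and the spots of a sequence were averaged. Between 24983 and 29688 of 58201 array sequences were well above background on an array, and the number of arrays limits the precision. After loess the mean log2 intensity of both channels was quantile normalized between arrays. Levels per channel were rebuilt from that mean and the log2 ratio, so single channels were not themselves quantile normalized. A gene was represented by its sequence of highest mean log2 intensity over the 8 arrays. Gene names are those of the array annotation (hg19). RefSeq gives 5 of the measured sequences another symbol.

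Groups of 2 arrays were tested against 0 in 1 limma fit of 8 arrays (5 group means, leaving 3 residual degrees of freedom), with Benjamini-Hochberg adjustment over all sequences well above background in either channel on each array of the group. The fit was tested on simulated data. P-values rest on 1 spread per sequence, pooled over the groups of 2 arrays and moderated across sequences. That spread holds differences between 2 lines and between 2 siRNAs, and none between repeats of 1 RNA in 1 line. For 1 array, ratios at or past 1 were counted without a test. The miR-139 arrays pair by cell line. Deviations of arrays of 1 line from their group means correlated at 0.0753.

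The members and lists were chosen with earlier results of these data known. Named were every SCARNA gene, the 8 highest and 4 lowest SNORA and SNORD genes on each miR-490 array and in their difference, up to 5 highest and 5 lowest members on 1 side with both arrays of a tested group, members called, hosts of SCARNA genes, and list members called or past 1. Python 3.11.15 with pandas 2.3.3, numpy 2.4.6 and matplotlib 3.10.9 was used after the fit.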

Additional observations from a re-analysis of the deposited data

How the results depend on the processing

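The SCARNA median of 0.49 with miR-490-5p was 1.03 by the scanner log ratio, 0.83 with an offset of 10, 0.68 without background correction and 0.41 with the mean of the 6 arrays of other lines taken off, and the SNORD median of -0.05 was -0.13 by the scanner log ratio. With miR-490-3p the SCARNA median of 0.26 was 0.53, 0.41, 0.39 and 0.18 under the same 4 settings and 0.38 under median centring. There the SNORA median of 0.07 was 0.16 by the scanner log ratio and 0.23 under median centring, and the SNORD median of 0.03 was 0.12 under median centring. Members past 1 with miR-490-5p rose from 8 (3.52%, beside 1.41% of named genes) to 18 by the scanner log ratio. Counted in both directions, the latter (7.93%, beside 8.71%) is near the background. At or above 1 lay 17 of 227 members, beside 1020 of 20960 named genes, and at or below -1 lay 1, beside 805. Of the SCARNA genes 11 of 21 lay at or above 1 there. These are the values the genes were selected on. With miR-490-3p the count of 3 (1.3%, beside 1.08%) was 18 by the scanner log ratio (7.83%, beside 8.01%). Of these 18, 15 lay at or above 1, beside 860 of 21271 named genes, and 3 at or below -1, beside 843. Under median centring the count was 10 (4.35%, beside 1.51%). With an offset of 10 it was 8 (3.48%, beside 2.16%), and so it was without background correction (3.48%, beside 1.91%). It was 1 with the other lines' mean taken off, for which no share of named genes is given. For the difference of the strands the count was 6 (3 higher and 3 lower, 2.65% in all beside 1.3%). By the scanner log ratio it was 24 (15 and 9, 10.6% in all beside 9.66%). It was 12 with an offset of 10 (7 and 5, 5.31% beside 3.23%) and 11 without background correction (6 and 5, 4.87% beside 2.78%).

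Members called for si-GINS1, 6 in all, or 2.5% beside 6.95% of all sequences, were 29 under median centring (12.1%, beside 10.7%) and 3 with an offset of 10 (1.25%, beside 5.45%). limma called 0 by the scanner log ratio (30 at an unadjusted p under 0.05), 0 with only the si-GINS1 arrays (7) and 0 with the other lines' mean taken off (24), beside 75, 0 and 512 of all sequences called. Over all sequences these limma fits had 5282, 2541 and 5702 at an unadjusted p under 0.05. Leaving out 1 siRNA gave 56 to 88, with the lone array assumed to vary like the other groups. All 88 without si-GINS1_1 were higher (36.7%, beside 24.0% of all sequences called), and without si-GINS1_2 38 were lower and 18 higher (23.3%, beside 33.8%). For miR-139-5p, miR-139-3p and their contrast the count in limma was 0 under every alternative run, leaving out an array included (0 to 0), and in the paired fit with the cell line as a replicate block it was 0. On single si-GINS1 arrays the SCARNA median of -0.39 with si-GINS1_1 was -0.90 by the scanner log ratio. By that ratio SNORA genes at or above 1 with si-GINS1_2 rose from 12 to 30 of 94. Named genes at or above 1 rose from 130 to 984 of 21375 there. For the miR-490 medians and counts and the called members, the settings not given here stayed within the spread of the mock channels or within 1.5 times. The use of RefSeq-matched sequences only, chosen after seeing the data, was among these. The cause of each shift was not tested.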
